A study of Mus musculus with 4 samples.

Results

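The upstream sites are clusters of cleavage positions of polyadenylated mouse RNA. At these clusters the midpoints of CstF64 CLIP alignments lay mostly before the cleavage position, although many of the alignments themselves reach it or run across it. CstF64 is the subunit of the cleavage stimulation factor, CstF, that binds RNA. Cleavage positions came from 3'READS, a sequencing method for the 3′ ends of polyadenylated RNA. Reads of both libraries were added up by position, and positions at most 24 nt apart on a strand were joined into clusters. Of 56206 such clusters with 3 or more reads, 14771 lay on the 19 autosomes and held at least 30 and fewer than 1000 reads, and 2277 of these had 5 or more midpoints of CLIP replicate 2 alignments within 60 nt of their most used (top) position on the same strand. At 736 of the 2277 (32.3%, exact 95% interval 30.4 to 34.3), 80% or more of these midpoints lay at -60 to -1, where negative distances are upstream in the direction of the RNA. These 736 clusters are the upstream sites.

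The study mapped poly(A) sites in the mouse genome with 4 samples. RNA pooled from 11 mouse cell lines and sold as a mix was captured with the CU5T45 oligo in 1 library and with oligo(dT)10-25 beads, the regular means of poly(A) selection, in the other. CLIP of CstF64, in which UV light links the protein to bound RNA and the RNA is then trimmed and sequenced, was done in growing C2C12 myoblasts, muscle precursor cells of an established mouse line, and given as 2 replicates. RNase T1, which cuts after G, did the trimming. Cleavage and CLIP thus come from different RNA, a purchased mix and C2C12 cells. The labels do not say if the mix contains C2C12, and the level of each site in C2C12 is not known here. The 3'READS libraries held 6738355 and 3482826 reads, and the CLIP files 1101047 and 1352122 distinct alignments.

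A mammalian poly(A) site is usually read as an array of elements around the cut. An A-rich hexamer upstream is bound by the cleavage and polyadenylation specificity factor, UGUA elements further upstream are bound by cleavage factor I, and U- and GU-rich RNA downstream is bound by CstF64 through its RNA recognition motif. The downstream position is the textbook place of CstF64, which makes sites with upstream CLIP a group to describe. Sequences and gene names of the sites are not given here, because the reference at hand is of another build than mm9, the build that the submitters' processing notes name. Sites are identified by chromosome, strand and top position in mm9. The files do not state if counting starts at 0 or 1, so each position is exact to within 1 nt.

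The other 1541 clusters that met the same read and CLIP minimums served for comparison. Of these, 626 had 20% or fewer of their midpoints upstream and are called downstream sites, and 915 lay between and are called mixed sites. A further 12494 autosomal clusters within the read limits had fewer than 5 midpoints. Each oligo has 1 library and clusters are not replicates of a condition, so no p-value is given, and intervals cover counting error only. PCR copies are not independent molecules, which makes these intervals too narrow.

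The CLIP counts that chose the sites were small at many of them. The upstream sites had a median of 8 midpoints in replicate 2 (quartiles 6 and 14.2, highest 559), and 356 had every midpoint upstream. The exact interval of the upstream share lay above 50% at 472 of the 736 sites (64.1%), while at the rest it reached 50% or less. Of 726 clusters with 5 or 6 midpoints 254 (35.0%) were upstream sites, and of 70 clusters with 50 or more midpoints 24 (34.3%). Upstream sites thus made up a like part of the clusters at low and at high counts. Mixed sites made up 31.4% at the lowest and 48.6% at the highest counts, and downstream sites 33.6% and 17.1%.

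Some sites lay close to the threshold on either side. Just inside it, the site on chromosome 5 at 34219931, plus strand, had 20 midpoints upstream and 5 downstream in replicate 2, and 15 of 20 upstream in replicate 1. Just outside, the site on chromosome 12 at 86097959, minus strand, had 15 and 4 in replicate 2, and 11 of 12 upstream in replicate 1. The replicate 1 counts did not keep the order of these sites. Exactly 80% was found at 87 of the upstream sites, and 62 clusters lay from 75% to just under 80%.

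The profile was then drawn from replicate 1, which the rule did not use, although the replicates are not independent. Over 1959 clusters with 10 or more midpoints in both files together, the chi-square of the replicate counts was 0.250 per degree of freedom, so the replicates differed by less than sampling noise, and they count as 1 sample here. Of the 9151 replicate 1 alignments centred within 60 nt of the upstream sites, 7259 (79.3%) had the same start, end and strand as a replicate 2 alignment. The replicate 1 profile is therefore a description of the sites and no second observation of them. Upstream of the cut lay 8444 of the 9151 midpoints (92.3%, 91.7 to 92.8), beside 93.4% in replicate 2. At mixed sites the replicate 1 share was 50.0% and at downstream sites 8.08%.

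Replicate 1 alignments whose 5′ end occurs nowhere in replicate 2 were few, and their side was less extreme. Of 247 such midpoints at 183 of the upstream sites, 199 lay upstream (80.6%, 75.1 to 85.3). At mixed sites the share was 48.9% (44.1 to 53.6), and at downstream sites 15.2% (11.1 to 20.1). This set was chosen after seeing the data, and it is the part of replicate 1 that overlaps least with the alignments that made the choice. Among the 575 upstream sites with 5 or more replicate 1 midpoints, 532 (92.5%) would also be chosen by replicate 1, and 43 would be mixed. The other 161 sites had fewer than 5 replicate 1 midpoints.

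Replicate 1 midpoints of the upstream sites peaked from -30 to -21, at 269 midpoints per nt per 1000 sites, and were nearly as dense from -20 to -11, at 255. Over the whole window from -60 to -1 the density was 191, and 156 without the 10 sites with most midpoints there. Towards the cut the density was lower, 145 from -10 to -1 and 37.0 from 0 to 9. From 20 to 29 it was 9.78. The rule sets the high density upstream and the low density downstream, and it also shapes the fall towards the cut, since sites with CLIP on both sides of it were left out. Mixed sites were densest from -10 to -1, at 190.

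**Figure D1:**
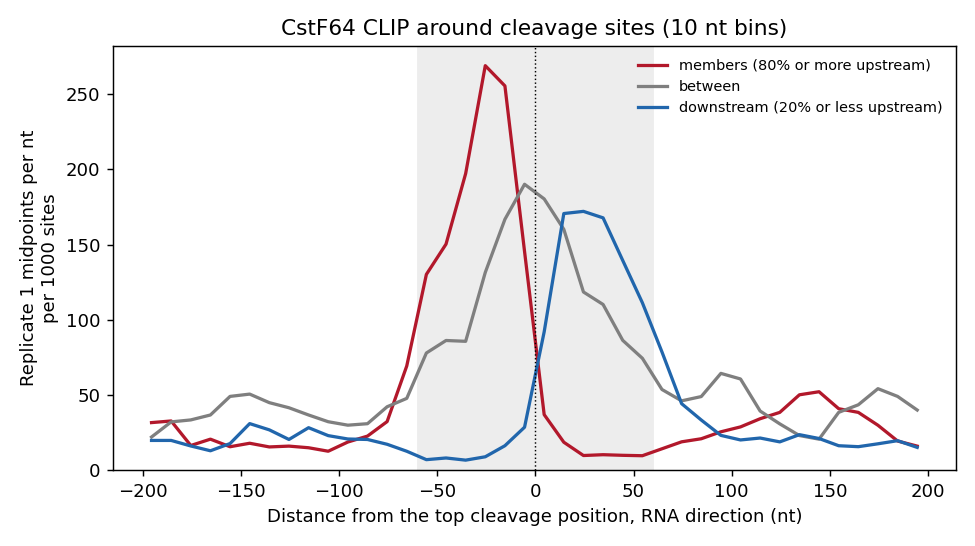
Replicate 1 CLIP midpoints per nt per 1000 sites (vertical axis) in 10 nt bins against the distance from the top cleavage position in nt (horizontal axis) for 736 upstream sites (members), 915 mixed sites (between) and 626 downstream sites; the grey band is the window of the rule. The upstream sites peak at 269 from -30 to -21 and are at 37.0 just after the cut.

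Upstream CLIP was found at a range of distances from the cut. In replicate 1, 573 of the 736 sites (77.9%) had a midpoint from -40 to -21, 528 (71.7%) from -20 to -1 and 401 (54.5%) from -60 to -41. Judged by the median midpoint of each site in replicate 2, the median over sites was -24.8. That median lay at -60 to -41 in 148 sites, at -40 to -21 in 307 and at -20 to -1 in 281. Within a site the midpoints were close together, with a median interquartile range of 10.0 nt at upstream sites, 10.0 nt at downstream sites and 33.0 nt at mixed sites, a difference that follows in part from the rule.

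A midpoint upstream does not mean that the whole alignment lay upstream. In replicate 1, 5660 of the 9151 alignments (61.9%, 60.8 to 62.8) ended before the top position, 3169 (34.6%, 33.7 to 35.6) spanned it and 322 (3.52%, 3.15 to 3.92) began after it. Spanning alignments here begin at or before the top position and end at or beyond it, so some may end at the cut itself. Only those that run past it hold RNA that was not cleaved at the top position, and they were not counted as a whole. They include at least the 860 replicate 1 alignments (9.40%) that ended from 10 to 19. Alignments were 20 nt or longer, so each of these began before the top position. In replicate 2, 575 of the 736 sites had at least 1 spanning alignment, and 161 (21.9%) had none. The spanning share was 46.6% at mixed sites and 29.3% at downstream sites in replicate 1. The 3′ ends of the alignments at upstream sites had no sharp edge at the cut, with 20.5% of them from -10 to -1 and 17.7% from 0 to 9.

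Alignments at the upstream sites were of much the same length as at the others. The median over sites of the median length was 35.2 nt in replicate 1 and 36.0 nt in replicate 2, against 33.5 and 34.5 nt at downstream sites. Alignments of the greatest length in each file, 69 and 57 nt, were 3.10% and 10.3% of all. Where the read length cut these off, the fragment ran further downstream than the alignment, which was not tested. They made up 2.87% of the alignments at upstream sites in replicate 1 and 8.16% in replicate 2, close to the 2.32% and 7.86% at downstream sites. Each distinct alignment was supported by 1.26 reads in replicate 1 and 1.40 in replicate 2. A median site had 6 distinct 5′ ends in replicate 2, and its most used 5′ end held 28.6% of the alignments.

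Just beyond the window of the rule, CLIP was denser on the upstream side, and farther out both sides were alike once the densest sites were set aside. In replicate 1, 286 sites (38.9%) had a midpoint from -100 to -61, at 35.8 per nt per 1000 sites, and 197 (26.8%) from 61 to 100, at 20.3. Mixed sites had 37.7 and 53.3 in the same stretches, and downstream sites 17.8 and 43.6, a lean to their own side. How far such a lean follows from the rule was not tested. In the next 100 nt downstream of the upstream sites, up to 200, the density was 34.8, yet the 10 sites with most midpoints there held 61.3% of them. Without these it was 13.6, beside 13.0 in the same stretch upstream without its own 10 densest sites. The high density downstream therefore belongs to a few sites. On the opposite strand only 80 replicate 1 midpoints lay within 60 nt of all upstream sites, against 9151 on the strand of the RNA.

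The 12 upstream sites with most CLIP had 77 to 559 replicate 2 midpoints. First was chromosome 17 at 39983474, plus strand, with 504 midpoints upstream and 55 downstream in replicate 2 and 492 of 553 upstream in replicate 1. Its 63 reads, 28 with CU5T45 and 35 with oligo(dT)10-25, were spread over 22 positions and 66 nt. It is one of 3 upstream sites within 734 nt on that strand, the others being at 39983289, with 122 of 127 midpoints upstream, and 39984023, with 133 of 133. These 3 sites also had 466, 551 and 361 replicate 2 midpoints from 61 to 200 downstream, so they lie in a stretch covered by CLIP well beyond the window of the rule. Which RNA this stretch encodes was not determined, so these 3 sites may not be ends of an mRNA.

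Other sites with dense CLIP were narrower. Chromosome 11 at 106362524, plus strand, had 321 of 344 replicate 2 midpoints upstream and 320 of 348 in replicate 1, with a median at -21. Only 15 replicate 2 midpoints lay from -200 to -61 and 12 from 61 to 200, so the peak was compact, and 153 of its 344 alignments spanned the cut. Its 282 CU5T45 and 48 oligo(dT)10-25 reads fell on 6 positions within 6 nt. Chromosome 7 at 17080385, minus strand, had 77 of 77 replicate 2 midpoints and 63 of 64 replicate 1 midpoints upstream, with a median at -28, and its top position held 81.9% of 431 reads.

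Further from the top position lay the CLIP of some dense sites. Chromosome 13 at 97960503, minus strand, had 186 of 186 and 189 of 189 midpoints upstream, with a median at -51 and a further 126 replicate 2 midpoints from -200 to -61. Chromosome 14 at 20110749, plus strand, had 84 of 84 and 65 of 65 upstream, every one of the replicate 2 midpoints from -60 to -41. None of the 84 alignments spanned the top position. At both sites the CLIP thus lay near the far edge of the window, and at the first it ran on beyond it. The top position held only 11.0% of 127 reads at the first site and 25.0% of 36 at the second. Their reads spanned 64 and 42 nt. At the first the CU5T45 top position lay 22 nt upstream, and at the second that of oligo(dT)10-25 lay 29 nt upstream. The CLIP was thus farther from the top position than from other cuts of these sites.

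**Figure D2:**
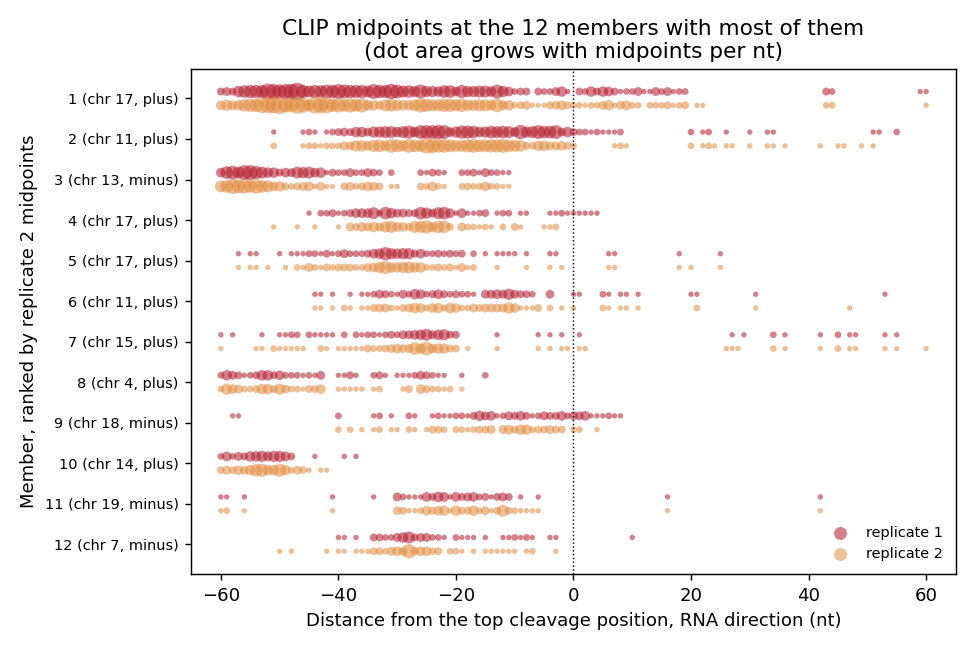
CLIP midpoints by distance from the top cleavage position in nt (horizontal axis) at the 12 upstream sites with most replicate 2 midpoints (rows, ranked), with replicate 1 in red and replicate 2 in orange; dot area grows with the number of midpoints at that nt. Rows 1, 4 and 5 are the 3 sites of the chromosome 17 stretch, and rows 3, 8 and 10 have their median from -60 to -41.

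Cleavage at the upstream sites was spread much as at the other sites. The rule used the top position and the number of reads but not how the reads were spread. The top position held a median of 72.1% of the reads of an upstream site (quartiles 54.0 and 89.1, lowest 11.0), against 71.4% at mixed sites, 73.9% at downstream sites and 73.2% at clusters with fewer than 5 midpoints. The median span was 16 nt (8 to 27) over 6 positions, against 16, 14 and 13 nt in the same order. These medians differed by far less than the spread over sites.

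More reads reveal more positions, so the spread was also compared at like numbers of reads. At 30 to 99 reads the top position held 73.3% of the reads at 320 upstream sites and 74.0% at 262 downstream sites. From 100 to under 300 reads the medians were 71.3% and 72.9%, and from 300 to under 1000 reads 71.1% and 77.6%, while the quartiles of these groups reached from 51.2% to 90.9%. The span at 30 to 99 reads was 14 nt at upstream and 11 nt at downstream sites, and from 300 reads on 18 and 20 nt. The top share was thus lower at upstream than at downstream sites in each bin. Which of these groups had the larger span depended on the number of reads. Mixed sites had median top shares of 69.4%, 71.4% and 76.1% in the same order. At 30 to 99 reads the upstream sites were therefore above the mixed sites.

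The shape of the spread was also alike on both sides of the cut. On average over upstream sites, 70.0% of reads lay at the top position, 8.26% from -5 to -1 and 9.96% from 1 to 5. At downstream sites these shares were 71.5%, 8.28% and 9.96%. Further upstream, from -24 to -11, the upstream sites had a mean of 2.51% of their reads and 218 of them (29.6%) had at least 1 read there, against 1.53% and 23.8% of downstream sites. This is the one window in which the means of these groups stood apart by over 1.5 times.

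**Figure D3:**
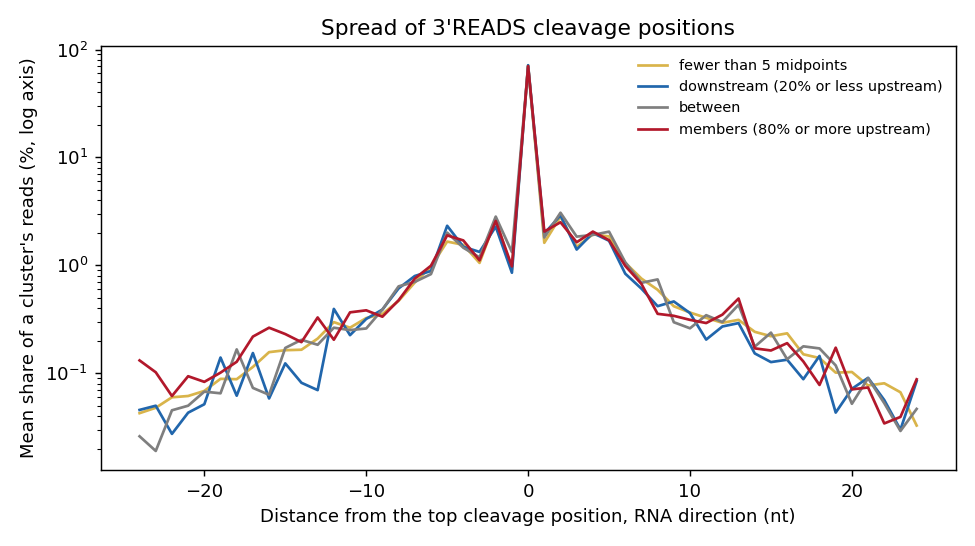
Mean share of a cluster's 3'READS reads in percent (vertical log axis) at each nt from the top position (horizontal axis) for the upstream sites (members), mixed sites (between), downstream sites and clusters with fewer than 5 midpoints. The lines run together within 10 nt of the top position, where upstream sites hold 70.0% of their reads.

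Both extremes of spread occurred. A single position held all reads at 22 upstream sites (2.99%, 1.88 to 4.49), against 2.40% of downstream and 5.23% of clusters with fewer than 5 midpoints. The largest of these were chromosome 4 at 135751971, plus strand, with 266 CU5T45 and 94 oligo(dT)10-25 reads, and chromosome 6 at 129182640, minus strand, with 253 and 76. The first had 7 of 8 replicate 2 and 5 of 7 replicate 1 midpoints upstream, and the second 6 of 6 and 7 of 7. Cleavage at 1 nucleotide and upstream CLIP thus occurred at the same sites. The same held for chromosome 1 at 181675024, minus strand, where 114 CU5T45 and 130 oligo(dT)10-25 reads shared 1 position and 27 of 27 and 16 of 16 midpoints lay upstream. At the other end, the top position held under 50% of the reads at 144 upstream sites (19.6%, 16.8 to 22.6), against 18.7% of downstream and 22.1% of mixed sites.

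The most dispersed sites were in part those with most CLIP. On chromosome 13 at 97960503 the top position held 11.0% of 127 reads at 31 positions over 64 nt, and on chromosome 17 at 39984023 it held 11.9% of 67 reads at 20 positions. The site on chromosome 11 at 88007629, plus strand, was dispersed with sparser CLIP: its top position held 18.3% of 509 reads at 17 positions and 11 of its 12 replicate 2 midpoints lay upstream. At the 24 upstream sites with 50 or more midpoints the median span was 28 nt and the top share 60.3%. Mixed and downstream sites with as many midpoints, 34 and 12 of them, had median spans of 18.5 and 12 nt. Their top shares were also below those of their groups as a whole, with 61.3% at the mixed sites.

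Both oligos placed the cut at the same nucleotide at most upstream sites. Of 405 upstream sites with 30 or more reads in each library, 371 (91.6%, 88.5 to 94.1) had the same top position and 379 (93.6%) had top positions at most 2 nt apart. The share with the same position was 91.2% at downstream and 90.5% at mixed sites. The position from which upstream and downstream were counted thus did not depend on the oligo at those 371 sites.

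The upstream sites were captured slightly more with CU5T45. The ratio of the CU5T45 share of reads to the oligo(dT)10-25 share had a median log2 of 0.27 (quartiles -0.24 and 0.77) at upstream sites, against 0.19 at mixed sites, 0.10 at downstream sites, 0.08 at clusters with fewer than 5 midpoints and 0.11 over all 16684 clusters with 30 or more reads. The ratio was above 1 at 472 of the 736 upstream sites (64.1%, 60.5 to 67.6), at 59.8% of mixed (56.5 to 63.0) and at 52.6% of downstream sites (48.6 to 56.5). The step between the groups was small beside the range of single sites, and with 1 library for each oligo it compares these libraries only.

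The median ratio was higher at more reads in every group, so it was read within bins of reads. At 30 to 99 reads the median log2 ratio was 0.12 at upstream, 0.09 at mixed and -0.05 at downstream sites. From 100 to under 300 reads it was 0.31, 0.20 and 0.12, and from 300 reads on 0.39, 0.28 and 0.21. The upstream sites had the highest median in each bin of reads, and the quartiles of the groups overlapped in all of them. Divided by CLIP instead, the order did not hold throughout: at 50 or more midpoints the medians were 0.18 at 24 upstream, 0.40 at 34 mixed and 0.28 at 12 downstream sites.

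**Figure D4:**
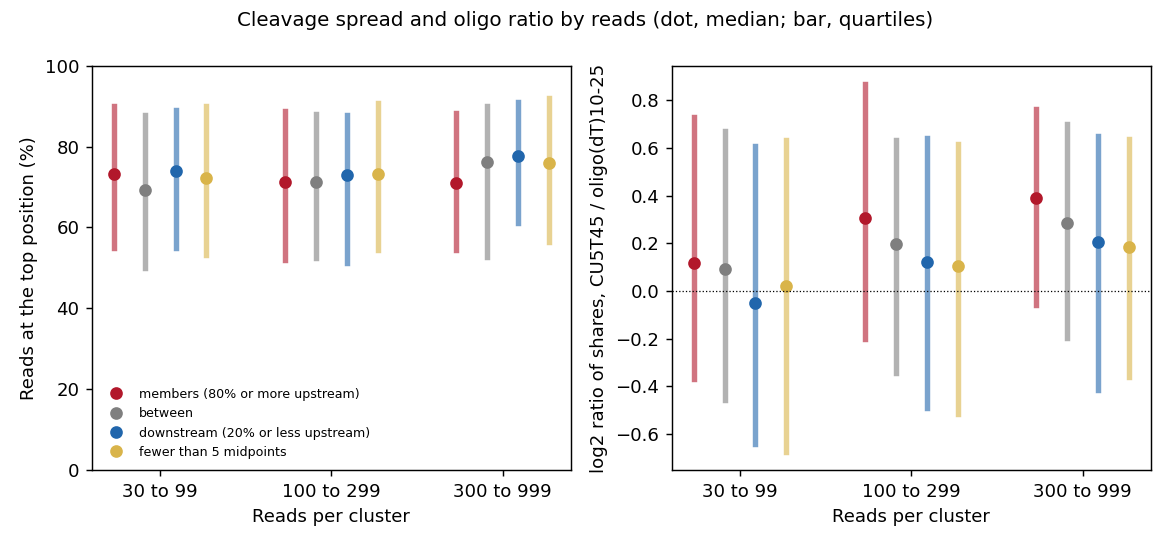
Share of reads at the top position in percent (left) and log2 ratio of the CU5T45 to the oligo(dT)10-25 share of reads (right) by reads per cluster (horizontal axes); dots are medians and bars quartiles over clusters. On the right the upstream sites have the highest median in each bin, from 0.12 to 0.39, with overlapping bars, and on the left the groups change places.

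Among all clusters with 30 or more reads, 27.5% had an exact interval of the ratio above 1 and 23.5% one below 1. Of the upstream sites, 253 (34.4%, 30.9 to 37.9) had an interval above 1, 126 (17.1%, 14.5 to 20.0) one below 1 and 357 one that included 1. A ratio of 2 or more with an interval above 1 was found at 109 upstream sites (14.8%, 12.3 to 17.6), beside 11.1% of all clusters, 11.8% of mixed and 12.3% of downstream sites. A ratio of 0.5 or less with an interval below 1 was found at 67 (9.10%, 7.12 to 11.4), beside 14.1% of all clusters, 9.84% of mixed and 14.1% of downstream sites. The share 2-fold lower was below the background, as it was at mixed sites. The share 2-fold higher was above it, but not under every way of placing the CLIP: 96 of 865 sites (11.1%, 9.08 to 13.4) were 2-fold higher when alignments were placed by their 5′ end, and 72 of 587 (12.3%, 9.72 to 15.2) with a window of 40 nt. The background includes clusters of 1000 or more reads and those without CLIP. Within bins, the share 2-fold higher in CU5T45 was 12.8% at upstream and 12.2% at downstream sites below 100 reads, 20.0% (15.1 to 25.7) and 14.6% (10.1 to 20.0) from 100 to under 300 reads, and 11.6% and 9.27% above. At mixed sites it was 12.3%, 10.5% (7.12 to 14.7) and 12.5% in the same order, so from 300 reads on the upstream sites were not above the mixed sites. The share 2-fold lower was below that of downstream sites in each bin, at 13.1% against 17.6%, 5.96% against 11.7% and 6.08% against 11.3%, with overlapping intervals. At mixed sites this share was 12.9% below 100 reads and 8.66% from 100 to under 300 reads. Below 100 reads the upstream sites were thus not below the mixed sites.

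Differences of 4-fold were rare. They were found in favour of CU5T45 at 14 upstream sites (1.90%), beside 1.75% of all clusters, and in favour of oligo(dT)10-25 at 25 (3.40%), beside 4.51%. The interval of the first, 1.04 to 3.17, and that of the second, 2.21 to 4.97, both included the background. At this depth large differences were thus not detectably more or less frequent than among all clusters.

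**Figure D5:**
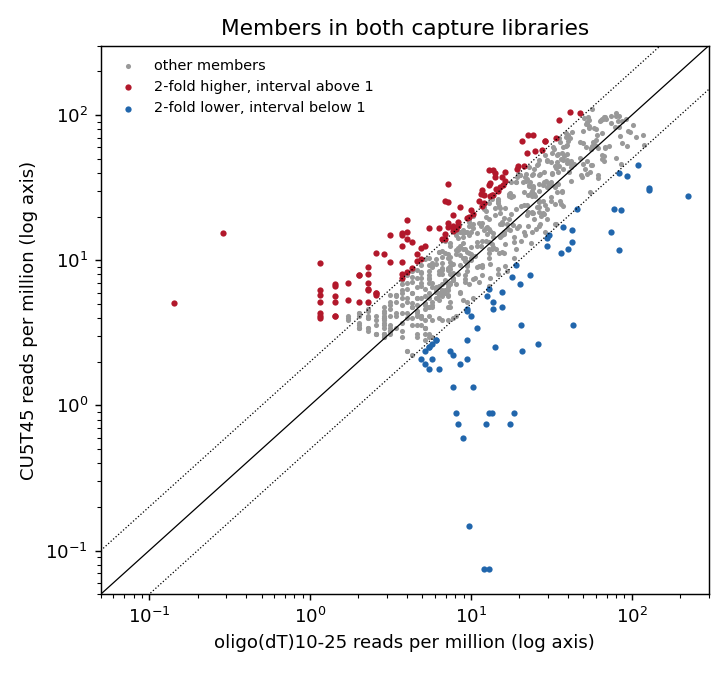
CU5T45 against oligo(dT)10-25 reads as CPM, that is, scaled to the library total (both axes logarithmic), at the 736 upstream sites, with a solid line of equal shares and dotted lines of 2-fold differences; counts of 0 are drawn at 0.5 reads. The 109 sites in red are at least 2-fold higher in CU5T45 and the 67 in blue at least 2-fold lower, with intervals that exclude 1.

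Single sites differed far more than the medians. At 71323370 on the minus strand of chromosome 17, CU5T45 gave 104 reads and oligo(dT)10-25 gave 1, a ratio of 53.8 (9.44 to 2143), and 17 of 17 replicate 2 midpoints lay upstream. At 6378029 on the plus strand of chromosome 19 the counts were 65 and 4, a ratio of 8.40 (3.13 to 31.7). At 133685772 on the minus strand of chromosome 4 they were 34 and 0. With 0 set to a floor of 3 reads this is 5.86-fold higher in CU5T45, while the exact interval reaches down to 4.51 and has no upper end. These sites rest on few oligo(dT)10-25 reads, and their intervals are wide.

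In the other direction, the counts at 120828862 on the plus strand of chromosome 14 were 1 with CU5T45 and 34 with oligo(dT)10-25, which is 65.8-fold lower in CU5T45 (11.0 to 2674). At 3145077 on the plus strand of chromosome 2 they were 0 and 45, or 29.0-fold lower with the same floor, while the exact interval reaches down to 22.6-fold. At 130627694 on the minus strand of chromosome 2, where a single position held all reads, they were 5 and 61, or 23.6-fold lower (9.58 to 75.3). Only 1 of the 2 replicate 1 midpoints of that last site lay upstream. The most abundant site with a large difference was at 4766248 on the plus strand of chromosome 16, with 187 reads in CU5T45 and 781 in oligo(dT)10-25, or 8.08-fold lower (6.88 to 9.53). There 6 of 7 replicate 2 and 6 of 8 replicate 1 midpoints lay upstream, close to the cut with a median at -3.

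The other 5 of the 6 upstream sites with most reads had ratios from 1.02 to 1.97. The most reads, 702 with CU5T45 and 277 with oligo(dT)10-25, were at 45017447 on the minus strand of chromosome 13, a ratio of 1.31 (1.14 to 1.51), with 5 of 5 replicate 2 midpoints upstream. At 96697463 on the plus strand of chromosome 8 the counts were 663 and 292, a ratio of 1.17 (1.02 to 1.35), and 16 of 17 midpoints upstream with a median at -53. Among the 6 upstream sites with most reads, CLIP was sparse, from 5 to 17 midpoints.

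The oligo ratio was described along the position of the CLIP as well. Where the median midpoint lay at -60 to -41, 34 of 148 sites (23.0%, 16.5 to 30.6) were 2-fold higher in CU5T45 with an interval above 1 and 10 (6.76%) 2-fold lower. Where it lay at -40 to -21 the shares were 13.4% (9.76 to 17.7) and 8.47%, and at -20 to -1 they were 12.1% (8.53 to 16.5) and 11.0%. Over all clusters with 30 or more reads they were 11.1% and 14.1%. For the share 2-fold higher, only the interval at -60 to -41 lay above that background, and the others included it. The median log2 ratios, 0.29, 0.27 and 0.25, lay close together. The median top share was 73.1%, 73.2% and 70.3% in the same order, with quartiles that overlapped widely.

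The upstream sites were also divided by their CLIP, their neighbours and their spread. The 356 sites with every midpoint upstream had a median top share of 71.1% and a log2 ratio of 0.27, and the other 380 had 72.8% and 0.26. The 161 sites without a spanning alignment in replicate 2 had 76.5% and 0.29, beside 71.3% and 0.27 at the 575 with one. At the 253 sites with no other cleavage cluster within 1000 nt on either side, the medians were 74.7% and 0.39, with a span of 14 nt. The quartiles of the top share overlapped in each of these comparisons. By number of midpoints, the median log2 ratio ranged from 0.18 at 50 or more to 0.43 at 10 to 19. Along the spread of cleavage the oligo ratio differed more than by upstream share or spanning alignments, with quartiles that overlapped widely. The 176 sites whose top position held 90% or more of the reads had a median log2 ratio of 0.12 (quartiles -0.42 and 0.72), and the 144 sites with a top share under 50% had 0.39 (-0.22 to 0.80).

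CLIP between a pair of cuts is upstream of one and downstream of the other, so neighbouring clusters were counted. Cuts upstream of the top position within the same cluster are not part of that count. They held a median of 5.27% of the reads at upstream sites, 5.26% at mixed and 4.43% at downstream sites. The upper quartiles were 25.4%, 22.6% and 22.2%. A neighbouring cluster of 3 or more reads had its top position within 100 nt upstream on the same strand at 92 of the upstream sites (12.5%, 10.2 to 15.1), against 9.62% of mixed and 11.8% of downstream sites. Within 60 nt it did at 45 (6.11%), at a median distance of 47 nt, and of the 505 replicate 1 midpoints from -60 to -1 at those 45 sites, 385 (76.2%, 72.3 to 79.9) lay at or downstream of the neighbour. With the neighbour at a median of 47 nt, most of the 60 nt window lies downstream of it, and no baseline for this share was computed. The part of these neighbours in the upstream CLIP was not tested. A neighbour with more reads than the upstream site itself lay within 100 nt upstream at 14 sites (1.90%, 1.04 to 3.17), against 0.639% (0.174 to 1.63) of downstream and 1.53% of mixed sites. Within 1000 nt, 43.6% of upstream sites had an upstream neighbour and 41.3% a downstream one, against 41.7% and 37.1% of downstream sites and 38.6% and 36.7% of mixed sites.

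The upstream sites were spread over the genome. All 19 autosomes had between 18 and 69 of them, and 375 lay on the plus strand. As a share of the clusters that met the read and CLIP minimums, they ranged from 20.8% on chromosome 15 to 43.6% on chromosome 18. Merging upstream sites at most 1000 nt apart on a strand left 715 separate stretches, of which 2 held 3 sites and 17 held 2, so few of the sites share their surroundings.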

How the data were processed

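The deposited read counts are whole numbers in 1 column of each file, with no normalization stated per the labels. Each 3'READS line is 1 cleavage position and each CLIP line 1 distinct alignment. The submitters' processing notes name mm9, Bowtie and Novoalign, without roles, and read filters are not given in the sources used here. The members and lists were chosen with earlier results of these data known. The tools were matplotlib 3.10.9, scipy 1.17.1, pandas 2.3.3 and numpy 2.4.6 under Python 3.11.15. Midpoints of distinct alignments were counted once each. Ties of the top position went to the most upstream one. The ratio of shares has an exact conditional binomial 95% interval, and shares have Clopper-Pearson intervals. A count of 0 was set to 3 reads for the ratio but not for its interval. Selection and ratio were tested on simulated data. Named sites are examples from the 12 upstream sites with most CLIP, the 6 with most reads, the 6 ratios at either end whose interval excludes 1, the 6 lowest top shares, the 6 largest single-position sites and 3 on each side of the threshold. Sequence context and gene lists were not analysed here, since the reference is GRCm38. Alternatives changed the gap, the minimums, the threshold, the window, the CLIP placement and counting, the library that set the top position, the CLIP replicate and the depth.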

Additional observations from a re-analysis of the deposited data

How the results depend on the processing

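Intervals cover counting error only, and at 5 to 9 midpoints the side of the CLIP is uncertain for single sites. No paired analysis was possible because the capture libraries share only 1 replicate number and no result comes from a test between replicated groups. The median top share stayed within its 95% interval under all 18 alternatives, from 70.7 to 74.2%, and the median log2 ratio (interval 0.21 to 0.34) under all but the minimum of 100 reads, at 0.35. In the 16 alternatives that chose or merged the sites anew, the median log2 ratio of upstream sites exceeded that of the other eligible clusters by 0.05 to 0.19, while the difference in top share took both signs (-2.11 to 1.20 percentage points). The number of sites, 736 as reported, was 323 with 10 or more midpoints, 469 at a threshold of 90%, 456 with CLIP placed by its 3′ end and 416 with a minimum of 100 reads, and 603 without replicate 2. Sites 2-fold higher in CU5T45 numbered 56 with 10 or more midpoints, 72 with a window of 40 nt, 70 by the 3′ end and 68 with a minimum of 100 reads, and those 2-fold lower 25 with 10 or more midpoints, 39 at 90%, 44 by the 3′ end and 25 with a minimum of 100 reads. Part of this follows from fewer sites, but the shares moved too, from 11.1 to 17.3% of sites 2-fold higher and from 6.01 to 10.4% 2-fold lower over 18 alternatives. The interval of the first lay above the background of 11.1% in 16 of the 18 and included it in 2, at 96 of 865 sites with CLIP placed by its 5′ end and with the 40 nt window. That of the second lay below the background of 14.1% in all 18. Both backgrounds were kept as reported and not computed anew for any alternative. With a minimum of 100 reads or another gap, the sites were thus set against clusters of other read limits or another gap. For these alternatives the comparison does not show how the sites stand beside clusters chosen in the same way. The cause of the moves in the shares was not tested. The median span was 11 nt with a gap of 10 nt, 18 nt with a gap of 40 nt and 10 nt when positions with 1 read were left out, settings that change the clusters themselves. It was 18 nt without an upper limit of reads and 17 nt with a minimum of 100 reads, which change the sites that enter. The replicate 1 share upstream was 95.4% at a threshold of 90%, 89.3% at 70%, 89.7% with a window of 40 nt, 89.7% by the 3′ end, 93.4% in replicate 2, and, in alternatives chosen after seeing the data, 92.9% without alignments of the greatest length and 80.6% for 5′ ends not in replicate 2.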
